A study of Mus musculus with 18 samples.

Results

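Carfilzomib (CFZ) was given for 6 h to mouse fibroblasts lacking Nrf1, and their transcripts were set against those of the same cells in DMSO. Nrf1 is the protein made from Nfe2l1, so the gene appears here under that symbol, and the symbol Nrf1 in the count table belongs to another factor. The comparison used 6 of the 18 RNA-sequencing libraries of the study, chosen by their labels alone, with 3 Nrf1-KO libraries in DMSO and 3 in 200 nM CFZ for 6 h. All were from NIH-3T3, an established line of mouse embryonic fibroblasts, in which the gene had been disrupted by CRISPR/Cas9 and which were grown in DMEM with 10% FBS. The sources used here do not say whether the knockout line is 1 clone or how long the DMSO cultures were exposed. The libraries of a group are described as biological replicates, with no account of how the cultures were kept apart, so p-values measure the spread between these libraries. Wild-type (WT) NIH-3T3 in DMSO or 200 nM CFZ for 6 h, and Nrf1-KO cells in 200 nM CFZ for 24 h, also with 3 libraries each, served for reference. The knockout was carried as a line of its own, so genotype and line cannot be told apart.

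CFZ binds the active sites of the proteasome, the protease complex that degrades ubiquitin-tagged proteins, and does not let go of them. Cells whose proteasome is blocked are known to raise several programmes. HSF1 drives cytosolic chaperones, the eIF2 kinases drive ATF4 and CHOP with their amino acid genes, IRE1 and ATF6 drive chaperones of the endoplasmic reticulum (ER), and NRF2 drives antioxidant genes. Nrf1 is an ER-bound factor that escapes degradation when the proteasome fails, is cut by DDI2 and then switches on the genes of the proteasome itself, the bounce-back response. The design asks what is left of the response to CFZ in fibroblasts without that factor.

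The libraries held 14231065, 14459212 and 23917081 counted reads in Nrf1-KO DMSO and 13679758, 12918547 and 8333148 in Nrf1-KO CFZ 6 h, the last being the shallowest of all 18. Counts were scaled to CPM, a gene's reads per library of a common size, by edgeR's TMM method, and 11762 genes that passed its expression filter were tested with its quasi-likelihood test. A gene is called higher or lower when its Benjamini-Hochberg adjusted p-value was under 0.05, and fold changes are given as log2 with their standard error. All 14 fibroblast markers were tested, and their summed level was 33850 to 40190 CPM in DMSO and 34410 to 38100 CPM in CFZ. The sum rests largely on Col1a1, Col1a2 and Fn1 and does not show how single markers changed. Over the 6 libraries S100a4 ranged from 848 to 2260 CPM, Pdgfrb from 176 to 344, Fn1 from 6020 to 11300 and Vim from 3210 to 3520. These ranges span both treatments and so include changes with CFZ. The lowest S100a4 level was in a CFZ library and the highest in a DMSO library. Fn1 was called higher in CFZ and Col3a1 lower, as given below. Of markers for other cells, 6 of 8 for macrophages and blood were in the table and summed to 15.8 to 17.6 CPM in DMSO and 10.8 to 11.5 in CFZ. Most of that was Lyz2, at 8.65 to 15.8 CPM over the 6 libraries, and Cd3e was at 0. The 5 epithelial markers summed to 69.6 to 71.0 CPM in DMSO and 57.8 to 62.3 CPM in CFZ. Epcam and Cldn4 were at 0, but over the 6 libraries Krt14 was at 54.4 to 60.2 CPM and Cdh1 at 3.3 to 13.0 CPM. The 4 endothelial markers summed to at most 1.16 CPM with Kdr at 0, and the 3 neuronal markers to at most 0.318 CPM. In bulk RNA, fewer cells expressing a gene and less of its RNA per cell cannot be told apart.

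Nfe2l1 (chr11:96817414-96829968, minus strand, GRCm38) was read first, as a check of the labels. In Nrf1-KO cells it stood at 174, 185 and 181 CPM in DMSO and at 414, 416 and 427 CPM in CFZ. The WT libraries held 457, 437 and 449 CPM in DMSO and 650.4, 648 and 628 CPM in CFZ. Each knockout library thus lay below every WT library in the same treatment, which goes with the labels, but transcript of the gene remained and all 3 CFZ libraries were above all 3 DMSO libraries. The change in Nrf1-KO cells was 1.22 (SE 0.034, adjusted p = 3.5e-24), or 2.32-fold, against 0.52 ± 0.032 in WT, and the interaction of genotype and CFZ was 0.70 (SE 0.047, adjusted p = 1.6e-13). Reads were summed over the whole gene, so they do not show whether the transcript carries the edit.

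After 6 h of CFZ, 8171 of the 11762 genes tested (69.5%) were called in Nrf1-KO cells, 4057 higher (34.5%) and 4114 lower (35.0%). The median over all genes was a log2 change of -0.008, and replicates varied by a biological coefficient of 3.13% over all genes, so that small differences passed the test. Of the called genes, 2000 changed by less than 0.25 on the log2 scale, 2983 by 0.25 to 0.5 and 152 by at least 2. A change of at least 2-fold was passed by 889 genes (7.56%), 388 higher (3.30%) and 501 lower (4.26%). Levels in the 2 groups of 3 libraries did not overlap for 8307 genes (70.6%), 4116 higher (35.0%) and 4191 lower (35.6%). The counts for gene groups below are to be read against these shares. Scaling by library size alone shifted the median of all genes to -0.12 and the share of called genes that were higher from 49.7% to 36.4%.

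**Figure D1:**
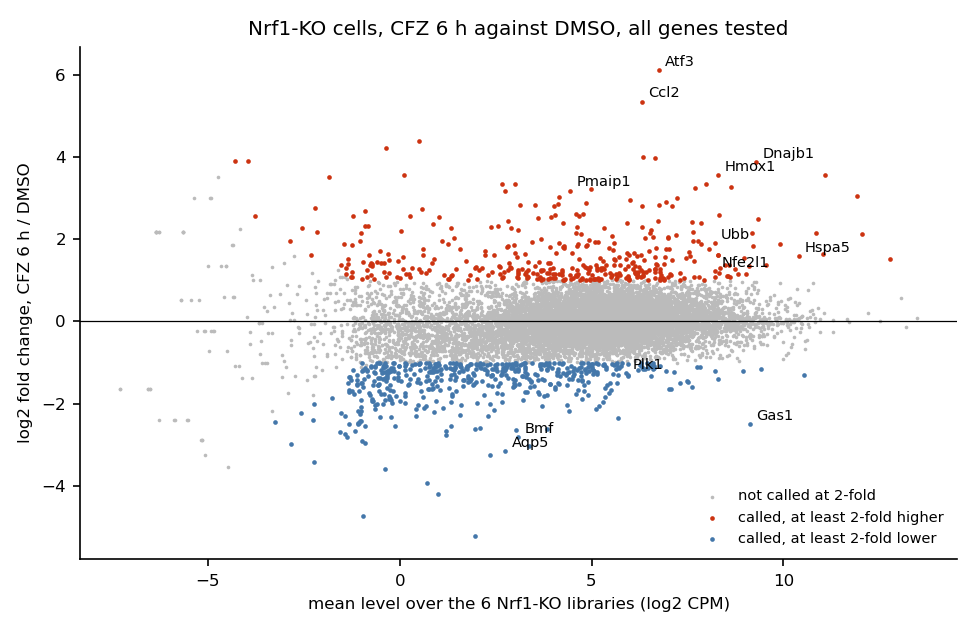
Each point is a gene tested in Nrf1-KO cells, with its mean level over the 6 libraries (log2 CPM, horizontal) against its log2 fold change in CFZ at 6 h over DMSO (vertical). Red marks the 388 genes called at least 2-fold higher and blue the 501 at least 2-fold lower; 11749 genes are drawn, and Atf3 at 6.11 is the highest of the labelled genes.

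The largest increases among called genes with a mean of at least 100 counts and no overlap between the groups were mostly in stress, inflammatory and chaperone genes. Atf3 (chr1:191170296-191218039), a stress-induced bZIP factor, was at 3.09, 3.06 and 3.08 CPM in DMSO and 205, 210.0 and 224 CPM in CFZ, a change of 6.11 (SE 0.075, adjusted p = 8.4e-34). Ccl2, the chemokine that draws monocytes, went from 4.27, 4.01 and 3.39 CPM to 156, 149 and 161 CPM, a change of 5.34 (SE 0.076, adjusted p = 3.8e-32). For both genes the 2 sets of libraries were far apart, with every CFZ library above every DMSO library. The neighbouring chemokine gene Ccl7 rose by 3.998 ± 0.083 (SE), and Phlda1, a pleckstrin-homology protein of the stress response, by 3.98 ± 0.054. Of Phlda1, 33.0% lies opposite another gene, and since counting by strand is not stated, reads from such stretches cannot be assigned. Dnajb1 (3.88), Hsph1 (3.57), Hmox1 (3.57), Cyr61 (3.34), Ptgs2 (3.25), Fas (3.22) and Pmaip1 (3.18) were also among them, as log2 changes, and are described with their groups.

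The 12 largest decreases by the same rule included a regulator of cell death, a growth arrest protein, channels and homeobox genes. Bmf (chr2:118528757-118549687), a BH3-only member of the BCL2 family that promotes cell death, stood at 15.2, 15.02 and 14.3 CPM in DMSO and 1.83, 2.01 and 2.64 CPM in CFZ, a change of -2.81 (SE 0.13, adjusted p = 1.1e-18). Gas1, a membrane protein that binds Hedgehog and is known from growth arrest, went from 951, 980.4 and 929.6 CPM to 166, 167 and 173 CPM, a change of -2.50 (SE 0.041, adjusted p = 1.5e-30). In both genes the DMSO libraries were all high and the CFZ libraries all low. Aqp5, a water channel with few reads, was at 12.1, 11.4 and 12.6 CPM in DMSO and 0.734, 1.47 and 2.16 CPM in CFZ, a change of -3.16 ± 0.19 (SE). Cacna1a, a calcium channel subunit (-3.03), Galnt15, which starts O-linked glycans (-2.65), Apln, the ligand apelin (-2.62), Aff3 (-2.35), Spon2, a secreted matrix protein (-2.18), Tmem119 (-2.14) and Serpinb1a, a protease inhibitor (-2.05), were also lower, as log2 changes. Hoxa3 and Hoxa2, neighbouring homeobox genes of positional identity, fell by 2.06 and 2.03 on the log2 scale. Hoxa3 was at 59.8, 61.5 and 56.4 CPM in DMSO and 14.8, 14.4 and 12.7 CPM in CFZ.

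Promoter sequence is shown for a few genes of the groups described next, because each holds the element that the textbook factor of that group is known to bind. The windows are RefSeq's, on GRCm38.p6, from 250 bases before to 50 after a gene's start, and 8781 of the 11762 genes tested had one. Both strands were searched, and capitals mark the match. The heat shock element was taken as GAANNTTCNNGAA or TTCNNGAANNTTC, which can overlap each other, as they do in the promoter of Hspd1, the mitochondrial chaperonin (2.15 in CFZ).
Hspd1 (chr1:55088026-55088105, minus strand): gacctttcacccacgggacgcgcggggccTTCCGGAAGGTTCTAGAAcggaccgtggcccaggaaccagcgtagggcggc
The ATF4-C/EBP element was taken as TGATGNAA and is shown for Atf3, for Chac1, an enzyme that cleaves glutathione, and for the cystine transporter gene Slc7a11, which holds 2 copies.
Atf3 (chr1:191183400-191183479, minus strand): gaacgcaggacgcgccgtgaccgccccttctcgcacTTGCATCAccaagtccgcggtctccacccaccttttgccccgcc
Chac1 (chr2:119351013-119351092, plus strand): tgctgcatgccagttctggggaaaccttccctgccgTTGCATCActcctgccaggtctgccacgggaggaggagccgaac
Slc7a11 (chr3:50443617-50443696, minus strand): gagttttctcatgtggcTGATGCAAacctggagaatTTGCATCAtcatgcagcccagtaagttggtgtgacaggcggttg
The ER stress element was taken as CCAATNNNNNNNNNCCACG, and is shown for Hspa5, the main ER chaperone BiP, and for Dnajc3, its co-chaperone (0.50).
Hspa5 (chr2:34771994-34772073, plus strand): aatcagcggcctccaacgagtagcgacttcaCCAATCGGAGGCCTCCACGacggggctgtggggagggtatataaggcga
Dnajc3 (chr14:118937796-118937875, plus strand): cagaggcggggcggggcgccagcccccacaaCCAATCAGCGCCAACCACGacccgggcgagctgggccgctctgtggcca
The core of the antioxidant response element, which Nrf1 and NRF2 share, was taken as TGACNNNGC, and is shown for Gclm, a subunit of the enzyme that starts glutathione synthesis (1.26), and for the small Maf gene Maff.
Gclm (chr3:122245387-122245466, plus strand): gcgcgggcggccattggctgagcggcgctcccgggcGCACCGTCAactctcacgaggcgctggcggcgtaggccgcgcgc
Maff (chr15:79346473-79346552, plus strand): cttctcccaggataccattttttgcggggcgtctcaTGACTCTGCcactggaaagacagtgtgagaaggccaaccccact
Hspd1, Dnajc3 and Gclm were chosen after their values were seen, and a match in these windows is a description and not a binding site. Over all genes tested the heat shock element was in 0.581% of windows, the ATF4-C/EBP element in 2.72%, the antioxidant core in 17.2% and the ER stress element in 0.148%. Among the 274 genes with a window that were at least 2-fold higher, the shares were 2.19% (6 genes), 5.84% (16), 17.2% (47) and 0.365% (1 gene), in the same order. Among the 333 at least 2-fold lower they were 0.0%, 1.8%, 16.5% and 0.0%. By group, the heat shock element was in 5 of 28 heat shock promoters and the ER stress element in 7 of 24 ER folding promoters. The ATF4-C/EBP element was in 6 of 21 promoters of the ATF4-CHOP group and in 5 of 13 tRNA synthetase promoters. The antioxidant core was in 12 of 25 NRF2-type promoters and was not particular to them. It was also in 6 of 10 promoters of amino acid transporters and 4 of 7 of CDK inhibitors and D-type cyclins. For metallothioneins and zinc transport it was in 4 of 9, and for TRiC in 3 of 7. Promoters of 20S subunits held it in 2 of 11, those of 19S subunits in 3 of 15 and those of ribosome biogenesis in 0 of 21. The promoters printed are among those that matched, and several genes that lead their groups did not match. Dnajb1 had a window without the heat shock element. No match to the element of their group was found for Hspa1a, Hspa1b, Hsp90aa1, Ddit3, Hmox1, Nqo1 or Osgin1, some of which may lack a window.

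Proteasome genes changed little. The 20S core is the barrel that holds the active sites, and the 19S particle caps it and feeds in substrates. Of the 14 genes for 20S subunits, 1 was higher (7.14%) and 4 were lower (28.6%), none by 2-fold, with a median of -0.01. Psma4, an alpha-ring subunit, stood at 114, 117 and 123 CPM in DMSO and 96.8, 96.0 and 103 CPM in CFZ, a change of -0.27 (SE 0.043, adjusted p = 2.1e-06). Psmb5, the subunit that CFZ binds, stood at 41.8, 46.5 and 41.5 CPM and 34.3, 37.4 and 40.6 CPM. Every CFZ library was below every DMSO library for both genes, but the call for Psmb5, at -0.22 (SE 0.070, adjusted p = 0.0072), was lost without CFZ replicate 1 (-0.15, adjusted p = 0.092). Psma1 was the member called higher, at 0.16 ± 0.045 (SE), and was called neither with upper-quartile scaling (0.09, adjusted p = 0.0736) nor with library size alone (0.05, adjusted p = 0.29). Of the lower 20S genes, 2 were called without DMSO replicate 2, 1 without CFZ replicate 1 and 9 with library size alone.

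Of the 19 genes for 19S subunits, 12 were higher (63.2%) and 2 lower, none by 2-fold, with a median of 0.14. Psmc6, an ATPase of the base, was at 109, 109 and 119.7 CPM in DMSO and 162, 164 and 181 CPM in CFZ, and Psmd11, a lid subunit, at 107, 111 and 108 CPM and 141, 139 and 142 CPM. Both rose without overlap, by 0.57 (SE 0.049, adjusted p = 6.7e-12) and 0.37 (SE 0.036, adjusted p = 9.9e-11). Adrm1, a ubiquitin receptor, rose by 0.54 ± 0.043, and 20.1% of its read-length stretches also occur in another gene. Shfm1 fell by 0.28 on the log2 scale. Psmd13, the other member called lower (-0.11 ± 0.047), was not called without DMSO replicate 2 (-0.11, adjusted p = 0.0546) or 3 (-0.09, 0.142) or without CFZ replicate 1 (-0.09, 0.135) or 2 (-0.11, 0.0896), and 6 members were called lower with library size alone. In WT cells the medians of the 20S and 19S genes were 1.04 and 1.42. The interaction was negative for 14 of 14 and 18 of 19 of them, where 18.4% of all genes tested had a negative interaction and 19.8% a positive one.

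Among 17 tested genes for assembly factors and accessory proteins, 7 were higher and 9 lower, with a median of -0.11. Pomp, the chaperone that matures the 20S core, was at 87.6, 88.0 and 95.5 CPM in DMSO and 65.8, 70.2 and 65.0 CPM in CFZ, and Psmf1, which encodes an inhibitor of the proteasome, at 27.2, 27.8 and 26.9 CPM and 43.3, 41.5 and 41.5 CPM. Pomp was lower in every CFZ library and Psmf1 higher in every CFZ library, with changes of -0.43 (SE 0.053, adjusted p = 1.5e-08) and 0.63 (SE 0.052, adjusted p = 4.2e-12). Psmg2, another assembly chaperone, also fell (-0.40), while Psme3, the nuclear activator, rose (0.32).

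Genes for ubiquitin and its handling rose in most members. Ubb, which encodes ubiquitin, was at 125.2, 123 and 124.6 CPM in DMSO and 449, 452 and 508 CPM in CFZ. The sets of libraries were far apart, with a change of 1.91 (SE 0.048, adjusted p = 1.5e-25), though 40.9% of its read-length stretches occur in other genes and its count is uncertain. Zfand2a, an arsenite-inducible factor at the proteasome, rose by 2.04 ± 0.041 (SE). Of 23 genes for ubiquitin, shuttles and extraction, 14 were higher (60.9%), 4 of them by 2-fold, and 3 lower, with a median of 0.41. The lower members included the shuttle Ubqln2 (-0.43).

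Cytosolic chaperones rose widely. Of 34 genes of the heat shock group, 31 were higher (91.2%), 24 of them by 2-fold, with a median of 1.77. Dnajb1 (chr8:83608193-83612653), the HSP40 that loads HSP70, was at 80.4, 76.7 and 81.3 CPM in DMSO and 1122, 1150 and 1248 CPM in CFZ, a change of 3.88 (SE 0.048, adjusted p = 8.4e-34). Hsph1, the HSP110 nucleotide exchange factor, went from 345, 333 and 332 CPM to 4014, 3931 and 4040 CPM, a change of 3.57 (SE 0.036, adjusted p = 7.1e-36). No library of either group lay near the other group in these genes. Hsp90aa1, the inducible HSP90, rose by 3.06 ± 0.036 (SE), with 32.7% of its read-length stretches shared with other genes. Hspa1b, an inducible HSP70, was at 38.1, 32.5 and 33.8 CPM and 248, 242 and 232 CPM, and Hspa1a, its near-identical neighbour, at 2.69, 2.86 and 2.85 CPM and 19.4, 19.8 and 21.1 CPM. Both were higher in CFZ, but 43.8% of the read-length stretches of Hspa1a and 44.8% of those of Hspa1b occur in another gene, so how reads fell between them is uncertain. Bag1, a co-chaperone, was the member called lower (-0.19); 2 were without DMSO replicate 2. The 8 genes of the TRiC chaperonin, which folds actin and tubulin, were all called higher, with a median of 0.52; Cct7, at 326, 319 and 325 CPM against 691, 708 and 753 CPM, passed 2-fold (1.15, SE 0.035, adjusted p = 4.0e-23), followed by Cct6a (0.93) and Cct2 (0.75).

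**Figure D2:**
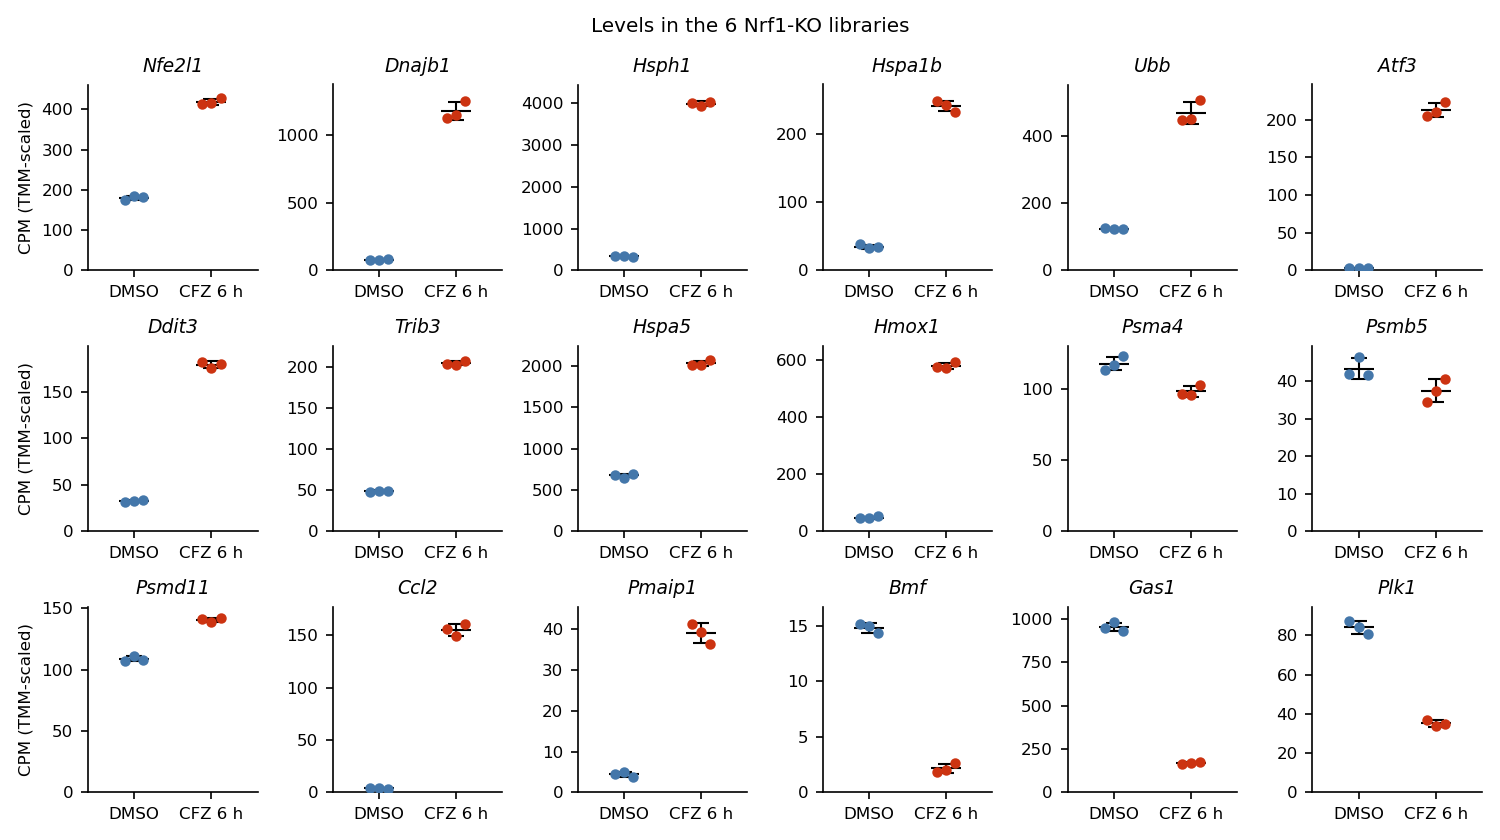
Levels in CPM (vertical, from 0) of 18 genes in each Nrf1-KO library, with a dot per library and the mean ± SD of 3 libraries for DMSO and for CFZ at 6 h. In the panels of Dnajb1, Ubb, Atf3, Ddit3, Hmox1 and Ccl2 the CFZ dots lie far above the DMSO dots, in Bmf, Gas1 and Plk1 far below, and in Psma4, Psmb5 and Psmd11 the sets are apart by a small step.

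The ATF4-CHOP group, which serves the integrated stress response, rose with few exceptions. Of 23 genes, 18 were higher (78.3%), 10 of them by 2-fold, and 2 lower, with a median of 0.87. Ddit3 (chr10:127290774-127296288), which encodes CHOP, was at 32.0, 32.9 and 33.8 CPM in DMSO and 182, 175 and 179.5 CPM in CFZ, and Chac1 at 28.0, 26.3 and 26.8 CPM and 198, 190.4 and 182 CPM. In both, the lowest CFZ library was several times the highest DMSO library, and the changes were 2.44 (SE 0.047, adjusted p = 9.9e-29) and 2.82 (SE 0.048, adjusted p = 3.4e-30). Trib3, a pseudokinase that restrains ATF4 and CHOP, went from 48.1, 49.4 and 49.6 CPM to 203, 203 and 207 CPM, a change of 2.06 (SE 0.038, adjusted p = 4.3e-29). Atf4 itself, which is regulated chiefly in translation, rose by 0.60 ± 0.034 (SE). Gdf15, a stress cytokine, had few reads, at 0.131, 0 and 0.0771 CPM in DMSO and 1.39, 1.39 and 1.68 CPM in CFZ, and no fold is given for it. The lower members were Atf5, a bZIP factor also under ATF4 (356, 353 and 343 CPM and 216, 213 and 204 CPM, -0.73, SE 0.034, adjusted p = 1.5e-18), and Eif2ak2, the RNA-activated eIF2 kinase (-0.26).

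The amino acid genes that lie downstream of ATF4 mostly rose. Of 15 genes for amino acid synthesis and one-carbon metabolism, 11 were higher (73.3%) and 1 lower, with a median of 0.53. Gpt2, an alanine aminotransferase, was at 91.5, 96.6 and 96.6 CPM in DMSO and 282, 287 and 289 CPM in CFZ, a change of 1.59 (SE 0.037, adjusted p = 2.2e-26). Cth, which makes cysteine (1.37), Psph, the last enzyme of serine synthesis (1.19), and Asns, asparagine synthetase (0.54), rose without overlap, while Mthfd1 was lower (-0.22); 2 members were called lower without DMSO replicate 1 or CFZ replicate 2. Of 15 transporter genes, 11 were higher and 1 lower, with a median of 0.60. Slc7a11, the cystine transporter whose promoter is printed above, stood at 33.2, 32.5 and 34.5 CPM in DMSO and 286, 265 and 246 CPM in CFZ, a change of 2.99 (SE 0.060, adjusted p = 2.8e-28). Its CFZ libraries were more spread than its DMSO libraries but far above them. Slc7a1 (1.38) and Slc3a2, the partner chain of Slc7a11 (1.10), rose as well, and Slc6a6, the taurine transporter, fell (-0.50). Of 21 genes for cytosolic aminoacyl-tRNA synthetases and the tRNA exporter, 19 were higher (90.5%) and none was called lower, with a median of 0.41; Nars (0.80), Iars (0.72) and Cars (0.72) led. With upper-quartile scaling or no expression filter 1 of them was called lower, and 2 with library size alone.

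ER chaperones rose less evenly. Of 31 genes for ER folding and translocation, 21 were higher (67.7%), 2 of them by 2-fold, and 9 lower (29.0%), with a median of 0.25. Hspa5 was at 677, 650.3 and 698 CPM in DMSO and 2013, 2010 and 2066 CPM in CFZ, a change of 1.59 (SE 0.035, adjusted p = 5.5e-27), and it shared the 2-fold class with Ero1l, the oxidase that forms disulfides (1.07). Hyou1, an ER HSP110, rose by 0.97 ± 0.038 (SE). The lower members included subunits of the translocation channel, Sec61b (-0.39) and Sec61g (-0.30), and Fkbp2, a prolyl isomerase (-0.38). Of 25 genes for stress sensors and ER-associated degradation, 14 were higher (56.0%) and 6 lower, none by 2-fold. Ern1, which encodes the sensor IRE1 (14.6, 14.96 and 14.8 CPM and 30.8, 28.1 and 26.7 CPM), rose by 0.96 (SE 0.067, adjusted p = 5.4e-14), and Xbp1, whose RNA IRE1 splices, by 0.79 ± 0.036. Herpud1, a degradation factor, rose by 0.78 ± 0.032. Creb3l2, a membrane-bound bZIP factor (-0.84), Edem2, which trims mannose (-0.78), and Atf6b (-0.35) were lower.

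NRF2-type antioxidant genes were mixed. Of 30 genes, 20 were higher (66.7%), 7 of them by 2-fold, and 7 lower (23.3%), with a median of 0.44. Hmox1 (chr8:75093621-75100589), which breaks down heme, was at 45.7, 47.5 and 52.5 CPM in DMSO and 575, 570.5 and 593 CPM in CFZ, a change of 3.57 (SE 0.044, adjusted p = 8.4e-34). Osgin1, an oxidative stress protein, went from 4.01, 3.69 and 3.39 CPM to 22.1, 20.9 and 19.4 CPM and Maff from 7.62, 7.70 and 9.02 CPM to 21.3, 21.7 and 23.9 CPM. All 3 genes were higher in every CFZ library, Osgin1 by 2.52 (SE 0.099, adjusted p = 2.6e-20) and Maff by 1.42 (SE 0.089, adjusted p = 4.6e-15). Nqo1, a quinone reductase often used as a readout of NRF2, rose by 0.54 ± 0.038 (SE). The 3 largest decreases of the group were in glutathione S-transferase genes, named here by that rank. Gsta4 was at 16.7, 17.4 and 16.6 CPM in DMSO and 8.73, 9.81 and 9.11 CPM in CFZ, and Gstm1 at 129, 136 and 129 CPM and 73.5, 70.7 and 70.9 CPM, with no overlap, and the changes were -0.87 (SE 0.087, adjusted p = 2.2e-10) and -0.87 (SE 0.043, adjusted p = 6.8e-18). Gstm5 (-0.50) and Keap1, the adaptor that marks NRF2 for degradation (-0.32), were lower too.

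The factors around Nrf1 and its processing were tested as 15 genes, of which 10 were higher (66.7%) and 2 lower, with a median of 0.53. Besides Nfe2l1 and Maff, Mafg, a small Maf partner, rose (29.2, 29.1 and 28.0 CPM in DMSO and 54.2, 51.2 and 46.8 CPM in CFZ, 0.83, SE 0.064, adjusted p = 5.9e-13). Keap1 and Ogt, a glycosyltransferase (-0.30), were the lower members. Among 11 genes for metallothioneins and zinc transport, 7 were higher and 4 lower; Mt1 fell from 284, 278 and 284 CPM to 185, 195 and 213 CPM (-0.52, SE 0.054, adjusted p = 6.4e-10) and Mt2 by 0.48 on the log2 scale, while Slc39a14 (0.55) and the metal-sensing factor Mtf1 (0.32) were higher. Of the transcribed length of Mt2, 73.5% lies opposite another gene. Among 26 autophagy genes, 14 were higher (53.8%) and 5 lower. Sqstm1, the receptor p62, was at 401, 411 and 418 CPM in DMSO and 1457, 1513 and 1588 CPM in CFZ and alone passed 2-fold (1.89, SE 0.036, adjusted p = 6.7e-29). Atg12 (0.85) and Tfe3, a lysosomal factor (0.77), rose, and Calcoco1 (-0.23) and Map1lc3a (-0.24) fell.

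**Figure D3:**
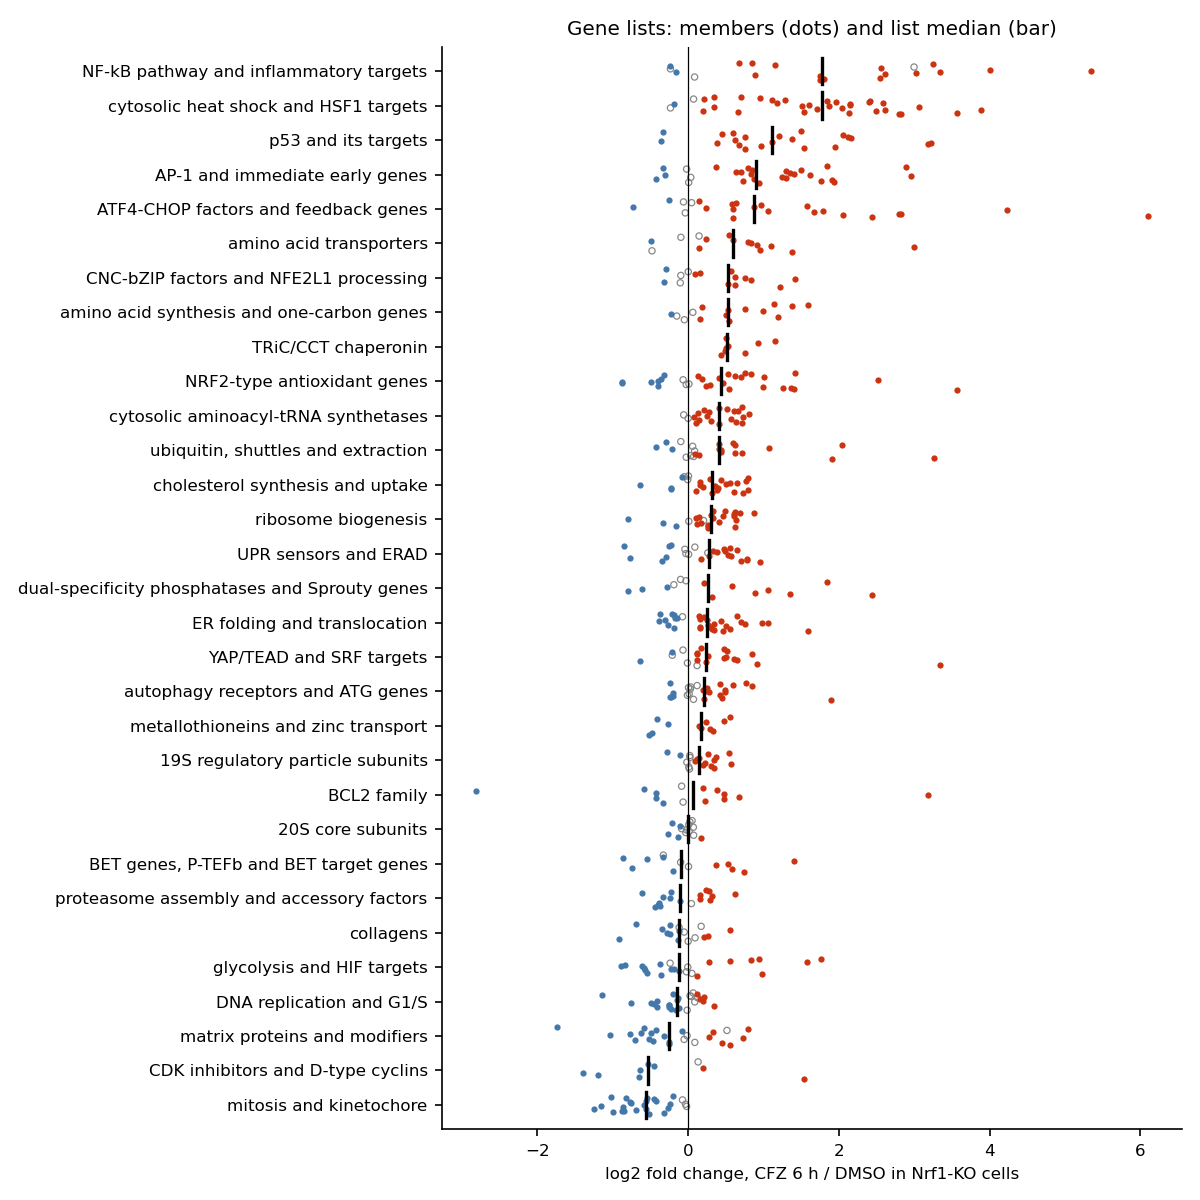
Log2 fold change (horizontal) of every tested member of each gene group in Nrf1-KO cells, CFZ at 6 h over DMSO, with a point per gene, a black bar at the group's median, and the groups sorted by it. Red points were called higher, blue lower, and open points did not pass; the NF-kB and heat shock groups lie farthest right (medians 1.78 and 1.77), and mitosis (-0.56) and the CDK inhibitors and D-type cyclins (-0.53) farthest left.

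Targets of p53, the factor that halts growth or starts death after stress, rose widely. Of 21 genes, 19 were higher (90.5%), 11 by 2-fold, and 2 lower, with a median of 1.11. Fas, a death receptor, was at 6.57, 5.67 and 5.90 CPM in DMSO and 52.9, 52.7 and 64.8 CPM in CFZ, and Pmaip1, which encodes the BH3-only protein NOXA, at 4.46, 4.96 and 3.82 CPM and 41.3, 39.1 and 36.3 CPM. Neither gene's groups overlapped, and the changes were 3.22 (SE 0.088, adjusted p = 1.7e-24) and 3.18 (SE 0.086, adjusted p = 1.0e-24). Cdkn1a, the cell cycle inhibitor p21, went from 90.2, 90.1 and 90.2 CPM to 260.3, 262 and 260.5 CPM, a change of 1.53 (SE 0.034, adjusted p = 3.3e-27), with hardly any spread within a group. Tnfrsf10b, a TRAIL receptor (2.16), and Mdm2, which degrades p53 (1.95), rose as well. The lower members were Sesn1 (-0.36) and Ddb2 (-0.33 ± 0.12), and the latter call was lost without DMSO replicate 3 (-0.28, adjusted p = 0.0945) or CFZ replicate 3 (-0.27, adjusted p = 0.0819). In the BCL2 family, with 14 genes tested, 7 were higher and 5 lower. Besides Pmaip1, the killers Bbc3 (0.68) and Bid (0.48) and the survival gene Mcl1 (0.47) rose, while Bmf, Bak1 (-0.59) and Bad (-0.42), also killers, fell.

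Immediate early and inflammatory genes rose in most members. Of 28 AP-1 and immediate early genes, 22 were higher (78.6%), 13 by 2-fold, and 3 lower. Ier3 was at 15.3, 14.96 and 14.2 CPM in DMSO and 116, 114 and 114 CPM in CFZ, and Gadd45a, a stress protein of growth arrest, at 26.7, 29.4 and 31.1 CPM and 222, 218 and 214 CPM, with changes of 2.96 (SE 0.047, adjusted p = 6.8e-31) and 2.90 (SE 0.043, adjusted p = 8.3e-32). The sets were widely apart in both. Jun rose by 1.77 ± 0.046 (SE), Fosl1 by 1.93 ± 0.068 and Egr1 by 0.87 ± 0.081, while Jund (-0.42), Btg1 (-0.34) and Ier5l (-0.31) fell; 57.2% of Fosl1 and 52.6% of Jund lie opposite other genes. Fos itself was at 0.788, 1.21 and 0.733 CPM and 1.98, 1.47 and 1.56 CPM. Of 14 genes for dual-specificity phosphatases and Sprouty proteins, which damp MAP kinases, 8 were higher and 3 lower. Dusp4 went from 2.10, 2.23 and 2.20 CPM to 12.1, 11.6 and 11.99 CPM (2.44, SE 0.14, adjusted p = 1.1e-15), and Spry4 (1.85) and Dusp5 (1.36) rose, against Dusp7 (-0.79), Dusp10 (-0.62) and Dusp14 (-0.28).

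Of 20 genes of the NF-kB pathway and its targets, 15 were higher (75.0%), 12 by 2-fold, with a median of 1.78. Besides Ccl2 and Ccl7, Cxcl10, an interferon-type chemokine, was at 1.18, 1.40 and 0.925 CPM in DMSO and 11.2, 12.1 and 11.2 CPM in CFZ (3.34, SE 0.15, adjusted p = 8.3e-19). Ptgs2, the inducible cyclooxygenase, was at 39.2, 40.7 and 38.5 CPM and 379, 370.3 and 374 CPM, and Nfkbia, the inhibitor that NF-kB itself induces, at 21.3, 20.2 and 22.7 CPM and 71.2, 74.5 and 71.0 CPM. All 3 were higher in every CFZ library, Ptgs2 by 3.25 (SE 0.055, adjusted p = 3.4e-30) and Nfkbia by 1.74 (SE 0.050, adjusted p = 5.4e-24). The 2 genes called lower were Vcam1 (-0.23 ± 0.087) and Cxcl5 (-0.16 ± 0.070), and neither call is firm. Without DMSO replicate 2 or CFZ replicate 1 none was called lower, 1 was without each of the other 4 libraries, and DESeq2 called 1. Vcam1 was -0.17 (adjusted p = 0.143) and Cxcl5 -0.11 (adjusted p = 0.24) without CFZ replicate 1.

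Most cell cycle genes were lower. Of 25 genes of mitosis and the kinetochore, none was higher and 22 were lower (88.0%), 3 by 2-fold, with a median of -0.56. Plk1, a mitotic kinase, was at 87.4, 84.3 and 80.8 CPM in DMSO and 37.0, 33.8 and 34.6 CPM in CFZ, and Bub1b, a checkpoint kinase, at 115, 115 and 119 CPM and 51.4, 55.4 and 49.6 CPM. All CFZ libraries were below all DMSO libraries, with changes of -1.25 (SE 0.052, adjusted p = 9.3e-20) and -1.16 (SE 0.050, adjusted p = 2.6e-19). Nuf2, of the kinetochore, fell by 1.03 on the log2 scale and Ccnb1, the mitotic cyclin, by 0.86. Of 26 genes of DNA replication and entry into S phase, 5 were higher and 15 lower (57.7%), with a median of -0.14. Tk1, thymidine kinase, went from 113, 114 and 109 CPM to 52.5, 51.3 and 46.6 CPM (-1.15, SE 0.047, adjusted p = 9.3e-20), followed by the cyclins Ccne1 (-0.75) and Ccne2 (-0.49). Mcm10 (0.34) led the 5 higher genes, and 3 were called higher without CFZ replicate 2 and 1 with library size alone. Of 9 genes for CDK inhibitors, D-type cyclins and their kinases, 2 were higher and 6 lower. Cdkn1a rose, as given above, whereas Cdkn2d, the inhibitor p19, was at 19.5, 18.8 and 18.1 CPM in DMSO and 7.19, 7.18 and 6.95 CPM in CFZ (-1.39, SE 0.091, adjusted p = 1.1e-14), and Cdkn2c (-1.19), Cdkn1b, the inhibitor p27 (-0.65), and Ccnd1, cyclin D1 (-0.64), were lower.

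Matrix genes, the main secretory product of fibroblasts, were lower in part. Of 16 collagen genes, 3 were higher and 8 lower, with a median of -0.12. Col3a1 was at 1390, 1324 and 1300 CPM in DMSO and 715, 721 and 695 CPM in CFZ, a change of -0.91 (SE 0.040, adjusted p = 5.8e-19). Col1a1, at 6971, 5809 and 4721 CPM and 6484, 5753 and 5258 CPM, overlapped between the groups and did not pass. Col6a3 rose by 0.55 ± 0.11 (SE) with a wide spread, at 1129, 807 and 786 CPM in DMSO and 1472, 1305 and 1198 CPM in CFZ. Without DMSO replicate 1, 5 collagens were called higher. Of 24 matrix proteins and modifiers, 6 were higher and 14 lower (58.3%). Plat, tissue plasminogen activator, went from 70.8, 67.7 and 65.9 CPM to 20.03, 20.1 and 21.1 CPM and Eln, elastin, from 127, 117 and 123 CPM to 59.1, 62.8 and 56.4 CPM. Both groups were apart, with changes of -1.74 (SE 0.057, adjusted p = 2.5e-22) and -1.03 (SE 0.058, adjusted p = 3.0e-16). Mfap5, a microfibril protein, also fell (-0.77), while Tnc, tenascin-C (0.72), and Fn1, fibronectin (0.56), rose.

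Of 21 targets of YAP/TEAD and SRF, 15 were higher (71.4%) and 2 lower, with a median of 0.24. Cyr61, a secreted matricellular protein, was at 48.4, 44.0 and 44.6 CPM in DMSO and 463, 452 and 471 CPM in CFZ, a change of 3.34 (SE 0.057, adjusted p = 3.4e-30), and stood far beyond the next, Ankrd1 (0.91) and Myl9 (0.85). Axl (-0.64) and Tpm2 (-0.21) were lower. Of 25 genes for cholesterol synthesis and uptake, 18 were higher (72.0%), none by 2-fold, with Cyp51 at 915, 940.3 and 999 CPM and 1604, 1619 and 1727 CPM (0.79, SE 0.035, adjusted p = 7.2e-19) and Fasn, fatty acid synthase (0.79), while Mvk was the lowest (-0.64).

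Of 23 glycolytic and HIF-type genes, 8 were higher and 11 lower (47.8%). P4ha2, a collagen prolyl hydroxylase, rose from 57.3, 55.4 and 55.1 CPM to 187, 187 and 198 CPM (1.77, SE 0.042, adjusted p = 2.8e-26), and Vegfa (1.58) and Hk2 (0.98) rose, while Ldha, lactate dehydrogenase, fell from 576, 578 and 587 CPM to 313, 319.9 and 306 CPM (-0.89, SE 0.035, adjusted p = 3.0e-20), with Bnip3 (-0.83) and Pdk1 (-0.61). Of 25 genes of ribosome biogenesis, 20 were higher, none by 2-fold, led by Wdr43 (0.88), Utp20 (0.69) and Rrn3 (0.64). Ubtf, the Pol I factor UBF, fell from 212, 217 and 221 CPM to 124, 126 and 125.1 CPM (-0.80, SE 0.035, adjusted p = 5.9e-19). Since the study turns on BET proteins, genes of that group were also read. Brd2 was at 390.4, 392 and 394 CPM in DMSO and 659.7, 667 and 644 CPM in CFZ (0.74, SE 0.033, adjusted p = 4.4e-19) without overlap. Hexim1, which holds P-TEFb inactive, fell (62.8, 63.1 and 63.0 CPM and 36.9, 38.8 and 36.5 CPM, -0.75, SE 0.048, adjusted p = 6.9e-15). Of their usual targets Myc was higher (1.40), and Foxm1 (-0.55) and Aurkb (-0.86) lower. Of the 13 genes of this group, 5 were higher and 5 lower.

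Set against WT cells, the response of the Nrf1-KO cells differed in 4502 genes by the interaction test (38.3%), with 2332 positive (19.8%) and 2170 negative (18.4%), and by at least 2-fold in 327 (2.78%), 142 positive (1.21%) and 185 negative (1.57%). A positive interaction means a log2 change that was higher in Nrf1-KO cells. It does not by itself show a higher level in CFZ, since the DMSO levels of both lines enter it. In WT cells 8452 genes were called (71.9%), 4190 higher (35.6%) and 4262 lower (36.2%), and 1133 by 2-fold (9.63%), 468 higher (3.98%) and 665 lower (5.65%). Against an all-gene median of -0.02, the medians of the WT changes were 0.52 for ATF4-CHOP, 0.14 for amino acid synthesis, 0.07 for amino acid transporters, 0.73 for p53, 1.67 for heat shock and 0.87 for NRF2-type genes. In Nrf1-KO cells, as given above, the medians were 0.87, 0.53, 0.60, 1.11, 1.77 and 0.44 in the same order, and the genes behind them were tested singly. Besides the proteasome subunits, the NRF2-type group leaned to the negative side, with 25 of 30 genes negative and 2 positive. So did ubiquitin and shuttles (13 of 23 negative, 2 positive) and proteasome assembly (7 of 17, none positive). In autophagy (8 of 26 negative, 2 positive) and ribosome biogenesis (8 of 25 negative, 2 positive) most members did not pass. The median interactions of these 2 groups were -0.031 and -0.011. Groups that leaned to the positive side included ATF4-CHOP (14 of 23 positive, 3 negative), amino acid synthesis (12 of 15, none negative) and amino acid transporters (9 of 15, none negative). Likewise tRNA synthetases (13 of 21, 4 negative), p53 (15 of 21, none negative), the BCL2 family (8 of 14, 2 negative) and AP-1 genes (13 of 28, 4 negative) leaned that way. Collagens (7 of 16 positive) and CDK inhibitors and D-type cyclins (4 of 9 positive) had none negative, but most members did not pass. Of AP-1 genes 8 were positive without WT CFZ replicate 2 and 7 without WT CFZ replicate 3. Heat shock genes were split, with 16 of 34 positive and 9 negative, and ER folding genes had 2 positive and 7 negative of 31. Those 7 were 4 without any of WT DMSO replicate 3, WT CFZ replicate 2, Nrf1-KO DMSO replicates 2 and 3 and Nrf1-KO CFZ replicates 1 and 2, left out in turn. The 3 negative ATF4-CHOP genes were 1 without WT DMSO replicate 3, Nrf1-KO DMSO replicate 1 or 3, or Nrf1-KO CFZ replicate 1. The 2 positive NRF2-type genes were 1 without WT DMSO replicate 1, WT CFZ replicate 2 or 3, or Nrf1-KO DMSO replicate 3, and 0 without WT CFZ replicate 1. Without WT DMSO replicate 1, 1 transporter was negative.

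Atf3 had the largest positive interaction called within the ATF4-CHOP group. WT libraries held 7.51, 8.44 and 7.96 CPM in DMSO and 157, 143 and 146 CPM in CFZ, a change of 4.22 against 6.11, and the interaction was 1.88 (SE 0.14, adjusted p = 1.3e-12). Both the higher DMSO level in WT and the higher CFZ level in Nrf1-KO enter this difference. Trib3 went from 104, 112 and 111 CPM to 159, 157 and 152 CPM in WT (0.52 against 2.06, interaction 1.53, SE 0.052, adjusted p = 1.3e-20). Trib3, like Atf3, had a higher DMSO level in WT and a higher CFZ level in Nrf1-KO cells. For the next genes changes alone are given, without WT levels. Ddit3 changed by 1.34 in WT and 2.44 in Nrf1-KO (interaction 1.10 ± 0.067, SE), Chac1 by 1.29 and 2.82 (1.52 ± 0.071), Slc7a11 by 1.87 and 2.99 (1.12 ± 0.084), Gpt2 by 0.41 and 1.59 (1.17 ± 0.052) and Pmaip1 by 2.07 and 3.18 (1.11 ± 0.14). Hspa5, at 1.58 and 1.59, had an interaction of 0.01 (SE 0.049, adjusted p = 0.89), which did not pass.

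Outside these groups, among genes with a mean of at least 100 counts and a 2-fold change in Nrf1-KO or WT cells, the largest positive interaction called was in Prickle1, a planar polarity gene. It stood at 2.23, 1.97 and 2.16 CPM in DMSO and 14.1, 16.1 and 15.7 CPM in CFZ in Nrf1-KO cells, and at 8.11, 5.96 and 8.55 CPM and 8.11, 7.43 and 6.93 CPM in WT cells. The knockout libraries rose from the lowest of the 12 levels to the highest, and the 2 WT groups overlapped (interaction 2.85, SE 0.18, adjusted p = 4.9e-14). Stbd1, which binds glycogen, changed by 2.40 against 0.77 in WT (1.62 ± 0.074, SE), and Stard5, a lipid transfer protein, by 2.09 against 0.50 (1.58 ± 0.083). Rgag1 fell in both, by less in Nrf1-KO cells (-1.52 against -3.13, interaction 1.61 ± 0.17).

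Of the 6 largest negative interactions by the same rule, 5 were in genes called higher in WT and lower in Nrf1-KO cells. Pfn2, a profilin of the actin cytoskeleton, was at 27.2, 26.0 and 27.5 CPM in DMSO and 23.1, 22.9 and 21.2 CPM in CFZ in Nrf1-KO cells, and at 41.5, 38.6 and 42.0 CPM and 142, 140.5 and 141 CPM in WT. Mfsd6, a membrane transporter, was at 25.4, 28.4 and 25.4 CPM and 23.0, 22.2 and 23.1 CPM in Nrf1-KO and 11.6, 13.1 and 12.9 CPM and 53.2, 54.8 and 55.7 CPM in WT. In both genes the WT libraries in CFZ were the highest of the 12 and the Nrf1-KO libraries in CFZ lay below their DMSO libraries, and the interactions were -2.05 (SE 0.079, adjusted p = 1.9e-19) and -2.33 (SE 0.088, adjusted p = 1.1e-19). Sumf2, an ER protein of sulfatase maturation, changed by -0.87 against 1.25, Arnt2, a bHLH-PAS factor, by -0.90 against 1.27, and BC028528 by -0.80 against 1.65. Fam219a was called higher in both, by 0.42 against 2.88. Of BC028528, 49.8% lies opposite another gene, and 23.6% of Sumf2. Gsta4 had the most negative interaction of the NRF2-type genes, with -0.87 against 0.87 (interaction -1.74, SE 0.11, adjusted p = 5.4e-14), and Fosl1, with 1.93 against 3.85, the most negative of the AP-1 genes (-1.92, SE 0.11, adjusted p = 4.2e-15).

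**Figure D4:**
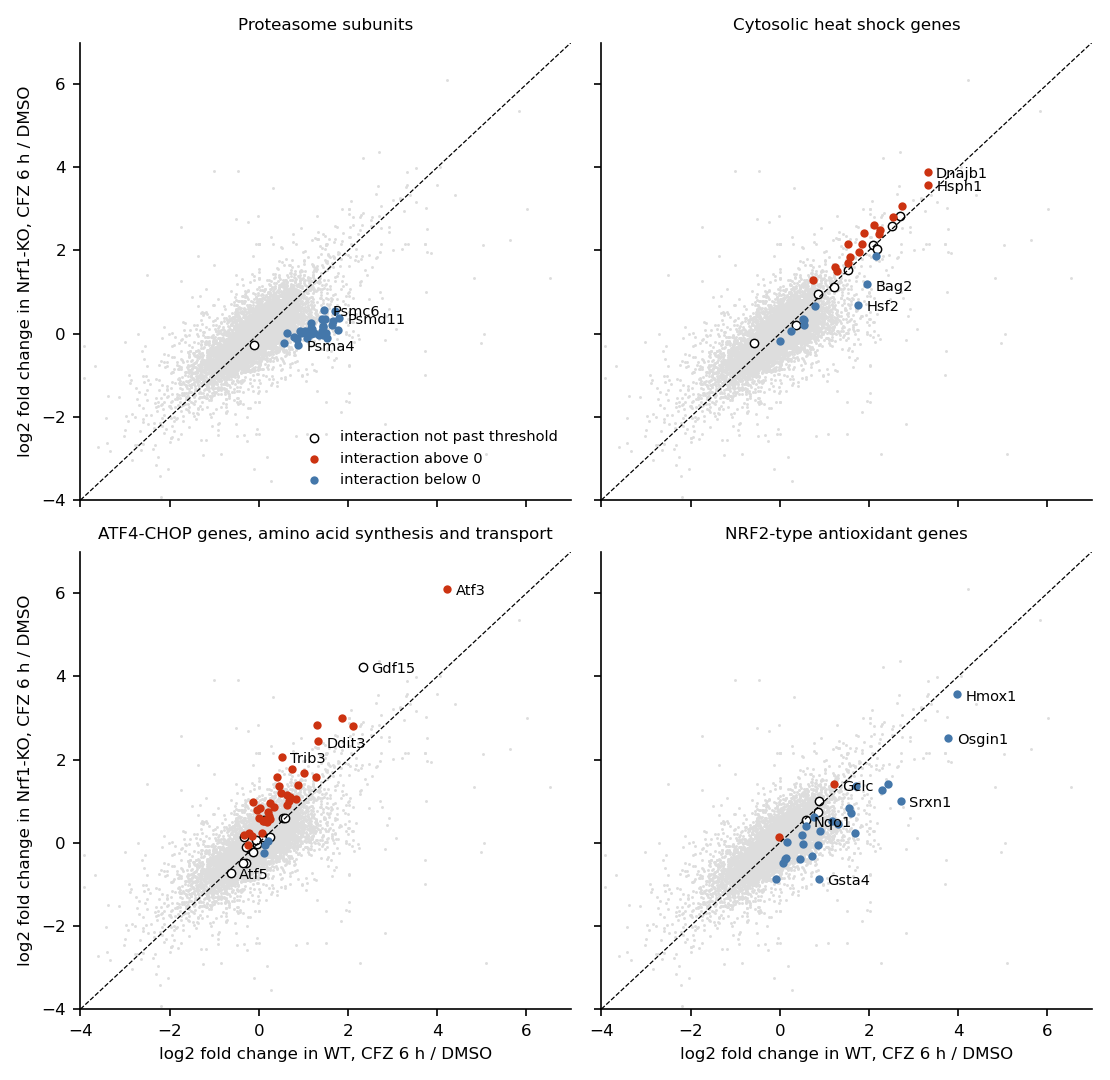
Log2 fold change at 6 h of CFZ in WT (horizontal) against Nrf1-KO (vertical) for 4 sets of genes, coloured where the interaction was called, over all genes in grey (11757 drawn), with a dashed line where the 2 changes are equal. Most proteasome subunits lie in a band near 0 on the Nrf1-KO axis and right of it on the WT axis, heat shock genes lie on both sides of the line, ATF4-CHOP and amino acid genes mostly above it, and NRF2-type genes mostly below it.

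Nrf1-KO cells at 24 h of CFZ were compared with those at 6 h. Between 6 h and 24 h, 9057 genes were called (77.0%), 4550 higher at 24 h (38.7%) and 4507 lower (38.3%), and 1856 by 2-fold (15.8%), 772 higher (6.56%) and 1084 lower (9.22%). Some genes that CFZ had raised at 6 h were low again. Edn1, which encodes endothelin-1, was at 8.34, 8.08 and 9.79 CPM in DMSO, 23.9, 20.4 and 20.1 CPM at 6 h and 1.20, 1.17 and 1.01 CPM at 24 h, so that its 24 h libraries were the lowest of all 9. Nfe2l1 was at 209.5, 202 and 201 CPM at 24 h, above DMSO and well below 6 h (-1.03, SE 0.034, adjusted p = 1.1e-22).

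Other genes went on in the direction taken at 6 h. Plk1 was at 2.89, 2.83 and 3.11 CPM at 24 h, a further change of -3.58 (SE 0.098, adjusted p = 6.6e-25), and Nuf2 changed by -3.99 ± 0.093 (SE). Eln had 1.13, 1.17 and 0.254 CPM at 24 h, after 127, 117 and 123 CPM in DMSO and 59.1, 62.8 and 56.4 CPM at 6 h, the largest decrease of those named (-6.11, SE 0.14, adjusted p = 8.0e-27). Cd248, which encodes endosialin of stromal cells, and Olfml3, a secreted matrix protein, were lower at 6 h (-1.59 and -1.11) and lower again at 24 h (-4.07 and -3.58). Upwards, Cryab, the small heat shock protein alpha-B crystallin, was at 206, 210.1 and 218 CPM in DMSO, 905, 924 and 995 CPM at 6 h and 7415, 8066 and 8055 CPM at 24 h (3.06, SE 0.040, adjusted p = 4.7e-33). Ier3 reached 906, 912 and 889 CPM and Dusp4 87.2, 91.5 and 82.2 CPM at 24 h, against the 6 h values above, with changes of 2.98 (SE 0.034, adjusted p = 1.3e-34) and 2.87 (SE 0.074, adjusted p = 1.4e-25).

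A few genes were at a low level at 6 h and a high level at 24 h. Prl2c2, a proliferin, was at 2.10, 2.61 and 2.20 CPM in DMSO, 6.60, 6.64 and 8.03 CPM at 6 h and 477, 522 and 535 CPM at 24 h, though 46.0% of its read-length stretches occur in other genes. Adamts4, a protease of the matrix, was at 1.38, 1.91 and 1.58 CPM, 3.60, 4.17 and 4.08 CPM and 62.8, 62.0 and 55.5 CPM. In each of the 3 states the libraries lay close together, and the changes from 6 h to 24 h were 6.20 (SE 0.078, adjusted p = 1.5e-33) and 3.93 (SE 0.089, adjusted p = 5.3e-27). Masp1, a protease of the complement system, turned, from 12.2, 14.4 and 13.3 CPM in DMSO to 5.58, 5.41 and 4.56 CPM at 6 h and 31.4, 29.0 and 29.9 CPM at 24 h (2.51, SE 0.096, adjusted p = 4.9e-21).

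**Figure D5:**
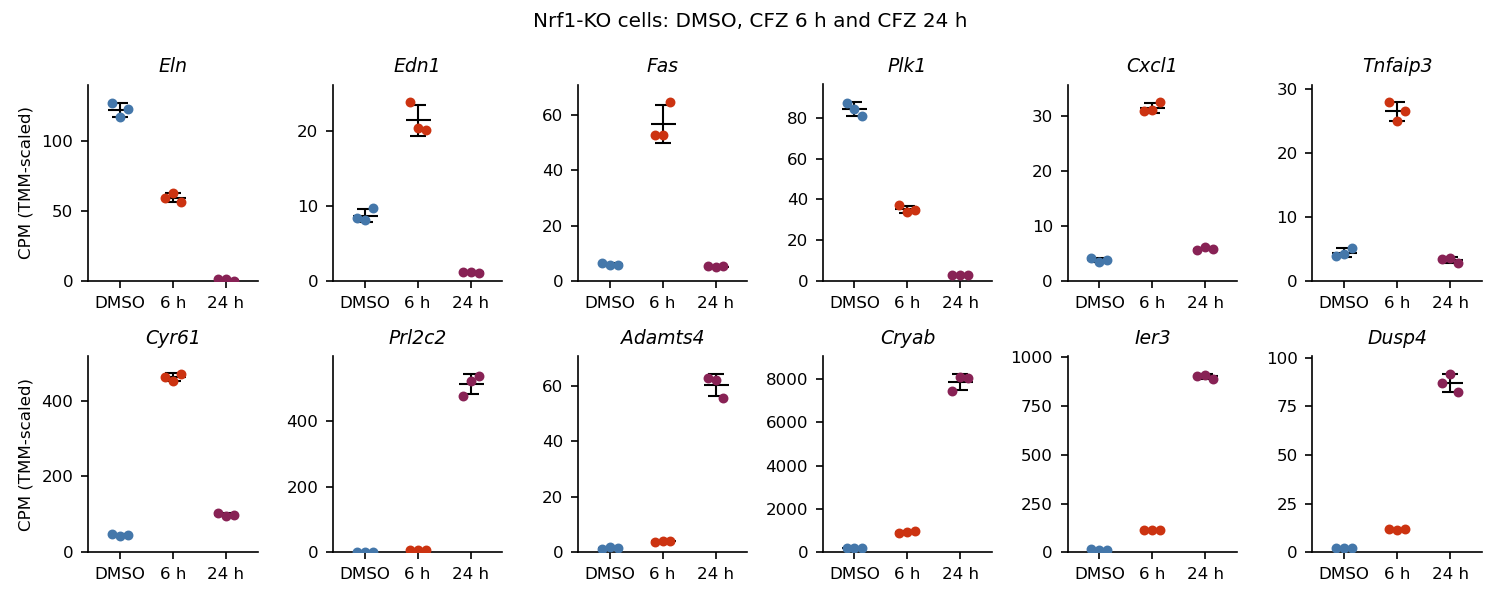
Levels in CPM (vertical, from 0) of 12 genes in Nrf1-KO cells in DMSO and after 6 h and 24 h of CFZ, with a dot per library and the mean ± SD of 3 libraries. Eln and Plk1 step down at 6 h and again at 24 h, Edn1, Fas, Cxcl1, Tnfaip3 and Cyr61 are high at 6 h and lower at 24 h (Cyr61 at a mean of 99.6 CPM, still above DMSO), and Prl2c2, Adamts4, Cryab, Ier3 and Dusp4 are highest at 24 h; Cxcl1 and Tnfaip3 were chosen after their values were seen.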

How the data were processed

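Total RNA of the 18 libraries was prepared with RNeasy kits, made into stranded mRNA libraries with KAPA reagents and read as paired 125-base reads on an Illumina HiSeq. The authors aligned reads with STAR and counted them per gene in the RNA Express app; the genome build, annotation and versions are not given in the sources used here. The deposited values are raw read counts per gene symbol, with no normalization, in 23420 rows, of which 6577 had no count. Symbols damaged into dates by a spreadsheet took up 27 rows and 0.252% of counts, and were kept for library sizes but are not named.

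Each library was assigned by its labels. Counts were fitted in edgeR (4.0.16, R 4.3.3, limma 3.58.1) with TMM scaling (factors 0.947 to 1.09), after edgeR's expression filter (minimum count 10, minimum total 15), as 6 group means over all 18 libraries. Quasi-likelihood tests with Benjamini-Hochberg adjustment over the 11762 genes tested were made for Nrf1-KO CFZ 6 h against DMSO, the same in WT, the interaction, and Nrf1-KO 24 h against 6 h. The standard error is the absolute log2 change divided by the square root of F. The procedure was tested on simulated data with the same spread for every gene and few changed genes. That setting is unlike these data, so it does not give the error rates here. Libraries of a group correlated at 0.994 or more in log2 CPM. Within Nrf1-KO DMSO and within Nrf1-KO CFZ 6 h, no pair agreed within sampling noise (chi-square per degree of freedom 1.44 to 5.50). Pairs of the other groups were not checked in this way. Precision is set by 8333148 to 23917081 counts per library.

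The gene groups and the genes named were chosen with earlier results of these data known. The named genes are Nfe2l1, the 12 largest changes in each direction among called genes with a mean of at least 100 counts and no overlap, the 3 largest in each direction of each group with its anchor genes, and the 6 largest in each direction of the interaction and of the late comparison among called genes with the same mean count and a 2-fold change at 6 h in Nrf1-KO cells (for the interaction, in Nrf1-KO or WT cells). Predicted genes, with symbols that begin with Gm or end in Rik, were left out of the rankings, and a few genes that the rule names are not reported here. Positions are from GENCODE M21 on GRCm38, in which 21751 symbols were found, along with overlap with genes on the other strand and 125-base stretches shared with other genes. Reads may be mixed with those of a gene on the other strand over 15.6% to 25.5% of Fam219a, Cryab, Sqstm1, Ccne2, Bid, Hspa1a, Gadd45a, Gas1, Bad, Stard5, Dusp5, Bnip3, Ccnd1, Sumf2, Ddb2, Hoxa3 and Bak1, and over more of the genes for which the report gives a share. Other settings tried were a 2-fold threshold, scaling by the upper quartile or by library size alone, DESeq2 (1.42.0), no expression filter or a mean count of at least 10, a fit of the compared groups alone, a block for replicate number, and fits without 1 library each.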

Additional observations from a re-analysis of the deposited data

Results flagged for a closer look

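A change at 6 h that differed between Nrf1-KO and WT cells by at least 2-fold, with an adjusted p-value under 0.05 in edgeR's quasi-likelihood test of the interaction, was found in 31 of the genes named; values are log2 differences, Nrf1-KO minus WT. Genes with a lower change in Nrf1-KO cells were Fam219a (-2.46), BC028528 (-2.44), Mfsd6 (-2.33), Arnt2 (-2.17), Sumf2 (-2.12), Pfn2 (-2.05), Fosl1 (-1.92), Gsta4 (-1.74), Cxcl5 (-1.29), Osgin1 (-1.26), Zfand2a (-1.16), Keap1 (-1.04) and Maff (-1.0). The proteasome genes among them were Psmd11 (-1.44), Psma1 (-1.28), Pomp (-1.22), Psmd13 (-1.19), Adrm1 (-1.17) and Psma4 (-1.15). Genes with a higher change in Nrf1-KO cells were Edn1 (1.09), Ddit3 (1.10), Pmaip1 (1.11), Slc7a11 (1.12), Gpt2 (1.17), Chac1 (1.53), Trib3 (1.54), Stard5 (1.58), Rgag1 (1.61), Stbd1 (1.62), Atf3 (1.88) and Prickle1 (2.85). Genotype and line cannot be told apart in any of them.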

How the results depend on the processing

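The counts depended first on the threshold. With a change of at least 2-fold also asked for, 889 in place of 8171 genes were called at 6 h in Nrf1-KO cells (388 in place of 4057 higher, 501 in place of 4114 lower), 327 in place of 4502 for the interaction (142 for 2332 positive, 185 for 2170 negative) and 1856 in place of 9057 between 6 h and 24 h (772 for 4550 higher, 1084 for 4507 lower). Without one library at a time, 7633 to 7935 genes were called at 6 h, 4075 to 4381 for the interaction and 8664 to 8908 between 6 h and 24 h. Library size alone moved the share of higher genes at 6 h from 49.7% to 36.4%, and the lower members called from 4 to 9 for 20S subunits, 2 to 6 for 19S, 3 to 5 for ubiquitin, 2 to 4 for YAP/TEAD and SRF targets and 4 to 7 for cholesterol. Library size alone and upper-quartile scaling alike gave 0 higher 20S genes in place of 1, and lower members of 2 for 1 in heat shock, 4 for 2 in ATF4-CHOP, 3 for 1 in amino acid synthesis, 2 for 1 in transporters and 5 for 3 in phosphatases. With no expression filter those of amino acid synthesis were 3 and of transporters 2. For tRNA synthetases, 0 became 1 with upper-quartile scaling or no filter and 2 with library size alone. Higher replication genes were 3 in place of 5 with DESeq2, upper-quartile scaling or no filter and 1 with library size alone, and DESeq2 called 1 in place of 2 lower NF-kB genes. As each library was left out, the ranges were 1 to 4 lower 20S genes, 1 to 2 lower 19S, 1 to 2 lower heat shock, 1 to 2 lower amino acid synthesis, 1 to 2 lower p53, 0 to 1 lower NF-kB, 3 to 5 higher replication genes and 3 to 5 higher collagens.

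Of 252 results for named genes, 237 kept direction and call under every setting. Col1a1, at 0.00 and not called, turned to -0.02 with DESeq2, -0.074 with upper-quartile scaling, -0.11 with library size alone, -0.05 with no filter, -0.005 with a mean count of at least 10, and to just below 0 with the compared groups only, and ranged from -0.134 to 0.148 as each library was left out. The cause of these changes was not tested. The labels do not say whether libraries with the same replicate number belong together. Deviations of same-numbered libraries correlated weakly, at 0.00996 to 0.072 between Nrf1-KO DMSO and CFZ, and 5 of the 6 libraries correlated best with their own number. A weak pairing by replicate number can thus not be set aside. In a fit blocked on replicate number, 8228 genes were called at 6 h (4093 higher, 4135 lower), 4650 for the interaction and 9126 between 6 h and 24 h, and 5 collagens were higher in place of 3. Depth limits genes at a few CPM, such as Gdf15 and Aqp5, most of all in CFZ replicate 3.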
